A study of Mus musculus with 16 samples.

Results

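The 10 genes described here encode proteins stored in neutrophil granules or, for S100a8 and S100a9, held in the cytosol as alarmins. They were taken by symbol from tables of 55291 gene symbols, and all 10 were found and passed the filter on low counts. Elane and Mpo belong to the primary granule, and Ltf, Camp, Ngp, Lcn2, Mmp8 and Mmp9 to granules formed later. Total RNA depleted of ribosomal RNA was sequenced from spleen cells of male C57BL/6 mice, either PKR KO or wild type (WT), that received imiquimod on shaved back skin. PKR is a kinase activated by double-stranded RNA and is encoded by Eif2ak2. Imiquimod, an agonist of Toll-like receptor 7, was given daily as 62.5 mg of a 5% cream, which is a model of psoriasis. The 8 groups were KO_D0, KO_D1, KO_D2, KO_D5, WT_D0, WT_D1, WT_D2 and WT_D5, named by genotype and day, with 2 libraries each and 16 in all. Day 0 mice received no cream, and no group received cream without imiquimod, so that drug, cream, handling and day cannot be told apart in a change from day 0. Each library pooled the spleens of 2 mice, cells were passed through a 70-µm mesh, and red cells were lysed. The labels give neither age nor the part of Eif2ak2 that was deleted.

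Neutrophils fill their granules in sequence as they mature from precursors. Promyelocytes make the primary (azurophil) granule proteins, such as elastase and myeloperoxidase. Myelocytes and later precursors make the specific granule proteins, such as lactoferrin and the cathelicidin peptide, and gelatinase is packed last. Calprotectin, the complex of S100a8 and S100a9, fills the cytosol of mature neutrophils and is released as an alarmin in inflammation, psoriasis included. The mouse spleen holds mature neutrophils and, when blood formation spreads to it, their precursors as well.

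The promoters of genes from each class are shown because their levels moved apart over the days. Each run of 300 bases holds 250 bases before and 50 bases from the RefSeq start on GRCm38.p6 (mm10), written 5′ to 3′ along the gene. That start can differ from the start of the transcript counted. The counted transcript starts at 87793581 for Mpo and, on the minus strand, at 109849617 for Camp, both before the RefSeq start. Most of both windows therefore lies within the counted transcript. For Elane and S100a8 too the counted start lies before the RefSeq start. Capitals mark matches to TTNNGNAA on either strand, a core of the site bound by C/EBP factors, which drive granule genes in mouse precursors. The windows are Elane at chr10:79886062-79886361 on the plus strand, Mpo at chr11:87793534-87793833 on the plus strand, Ltf at chr9:111019042-111019341 on the plus strand, Camp at chr9:109849407-109849706 on the minus strand, S100a8 at chr3:90668821-90669120 on the plus strand and S100a9 at chr3:90695672-90695971 on the minus strand.
Elane: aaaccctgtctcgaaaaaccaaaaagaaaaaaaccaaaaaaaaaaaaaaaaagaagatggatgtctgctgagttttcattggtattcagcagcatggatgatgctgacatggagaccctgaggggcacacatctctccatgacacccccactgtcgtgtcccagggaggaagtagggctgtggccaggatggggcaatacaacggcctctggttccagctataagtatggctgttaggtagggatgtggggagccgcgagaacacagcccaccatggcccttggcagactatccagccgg
Mpo: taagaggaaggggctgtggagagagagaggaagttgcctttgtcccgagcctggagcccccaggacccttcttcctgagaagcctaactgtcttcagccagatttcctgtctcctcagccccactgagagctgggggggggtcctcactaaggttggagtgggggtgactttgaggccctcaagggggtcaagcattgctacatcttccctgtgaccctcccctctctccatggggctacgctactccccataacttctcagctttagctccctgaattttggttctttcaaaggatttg
Ltf: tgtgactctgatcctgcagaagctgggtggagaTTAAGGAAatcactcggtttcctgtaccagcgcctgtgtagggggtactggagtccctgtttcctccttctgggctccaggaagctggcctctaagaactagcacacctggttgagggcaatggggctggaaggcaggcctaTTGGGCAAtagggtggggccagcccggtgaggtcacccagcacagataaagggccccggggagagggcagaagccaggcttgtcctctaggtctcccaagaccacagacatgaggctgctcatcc
Camp: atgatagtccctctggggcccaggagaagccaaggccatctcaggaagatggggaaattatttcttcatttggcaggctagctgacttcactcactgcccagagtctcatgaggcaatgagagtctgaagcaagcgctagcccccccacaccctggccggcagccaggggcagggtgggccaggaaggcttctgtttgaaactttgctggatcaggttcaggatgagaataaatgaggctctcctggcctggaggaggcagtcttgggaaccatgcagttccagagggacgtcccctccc
S100a8: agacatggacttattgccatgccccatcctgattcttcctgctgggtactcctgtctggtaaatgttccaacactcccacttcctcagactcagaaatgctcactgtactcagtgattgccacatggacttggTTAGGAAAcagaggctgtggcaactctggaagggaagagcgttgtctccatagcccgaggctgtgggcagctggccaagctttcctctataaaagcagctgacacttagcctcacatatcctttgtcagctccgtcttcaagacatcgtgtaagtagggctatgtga
S100a9: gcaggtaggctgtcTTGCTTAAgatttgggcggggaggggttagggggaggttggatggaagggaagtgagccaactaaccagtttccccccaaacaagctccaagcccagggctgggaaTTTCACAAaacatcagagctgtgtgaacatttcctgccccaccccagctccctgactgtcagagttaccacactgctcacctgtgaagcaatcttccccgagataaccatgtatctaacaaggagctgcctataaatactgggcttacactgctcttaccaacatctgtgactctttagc
RefSeq windows were matched for 9 of the 10 genes, all but Mmp9. The C/EBP letters were found in 6 of the 9 (S100a8, S100a9, Ltf, Ngp, Lcn2 and Mmp8) and in 40.7% of all 32851 promoter windows of this length. The letters GAGGAAG, a PU.1 site, were in 5 of the 9 (S100a8, Elane, Mpo, Lcn2 and Mmp8) and in 13.6% of all windows. CAACNG, a Myb site, was in 3 of the 9 (Elane, Ngp and Lcn2) and in 35.0% of all windows, and 1 Myb match in Lcn2 overlaps its C/EBP match. The AP-1 letters TGANTCA had no match in the 9, against 7.81% of all windows, nor had the NF-kB site, against 5.78%. Both strands were searched, and such matches only describe the letters in these windows.

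Library totals were 35026754 to 67333830 fragments. Levels are the deposited FPKM, and replicate 1 is given before replicate 2. Changes are log2 values from edgeR's quasi-likelihood test on fragment counts over 18744 genes, with its standard error (SE), and a gene is called to have risen or fallen where the Benjamini-Hochberg adjusted p was under 0.05. The p-values measure the spread between pools of mice. The log2 changes include TMM scaling factors, which FPKM values do not carry. These were 1.204 and 1.195 in WT_D1 and 0.933 to 1.069 in the other libraries. They were set against total fragments, so they hold both RNA composition and the share of fragments counted on transcripts. Counts summed over transcripts were 2.08 and 2.12 times the library total in WT_D1, and 1.48 to 1.8 times in the other libraries. The parts of these in the factors were not tested. Eif2ak2 stood at 2.74 to 4.12 FPKM in the knockout and 5.77 to 7.06 FPKM in WT on days 0 and 5, and at 9.18 to 10.1 FPKM in the knockout and 26.6 to 28.1 FPKM in WT on day 1. On day 2 the library labelled KO_D2 replicate 1 had 11 FPKM, while KO_D2 replicate 2 had 4.65 FPKM and the WT libraries 7.32 and 9.33 FPKM. That library is said below to go against its label only in that its Eif2ak2 lay above WT of the same day. Its level was close to that of the knockout on day 1, and whether the label is wrong was not tested. The neutrophil marker Ly6g was detected in all libraries, at 0.179 to 5.68 FPKM, and the 10 macrophage markers of a spleen list summed to 53.6 to 149 FPKM. In bulk RNA, fewer cells of a type and less RNA per cell cannot be told apart.

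**Figure D1:**
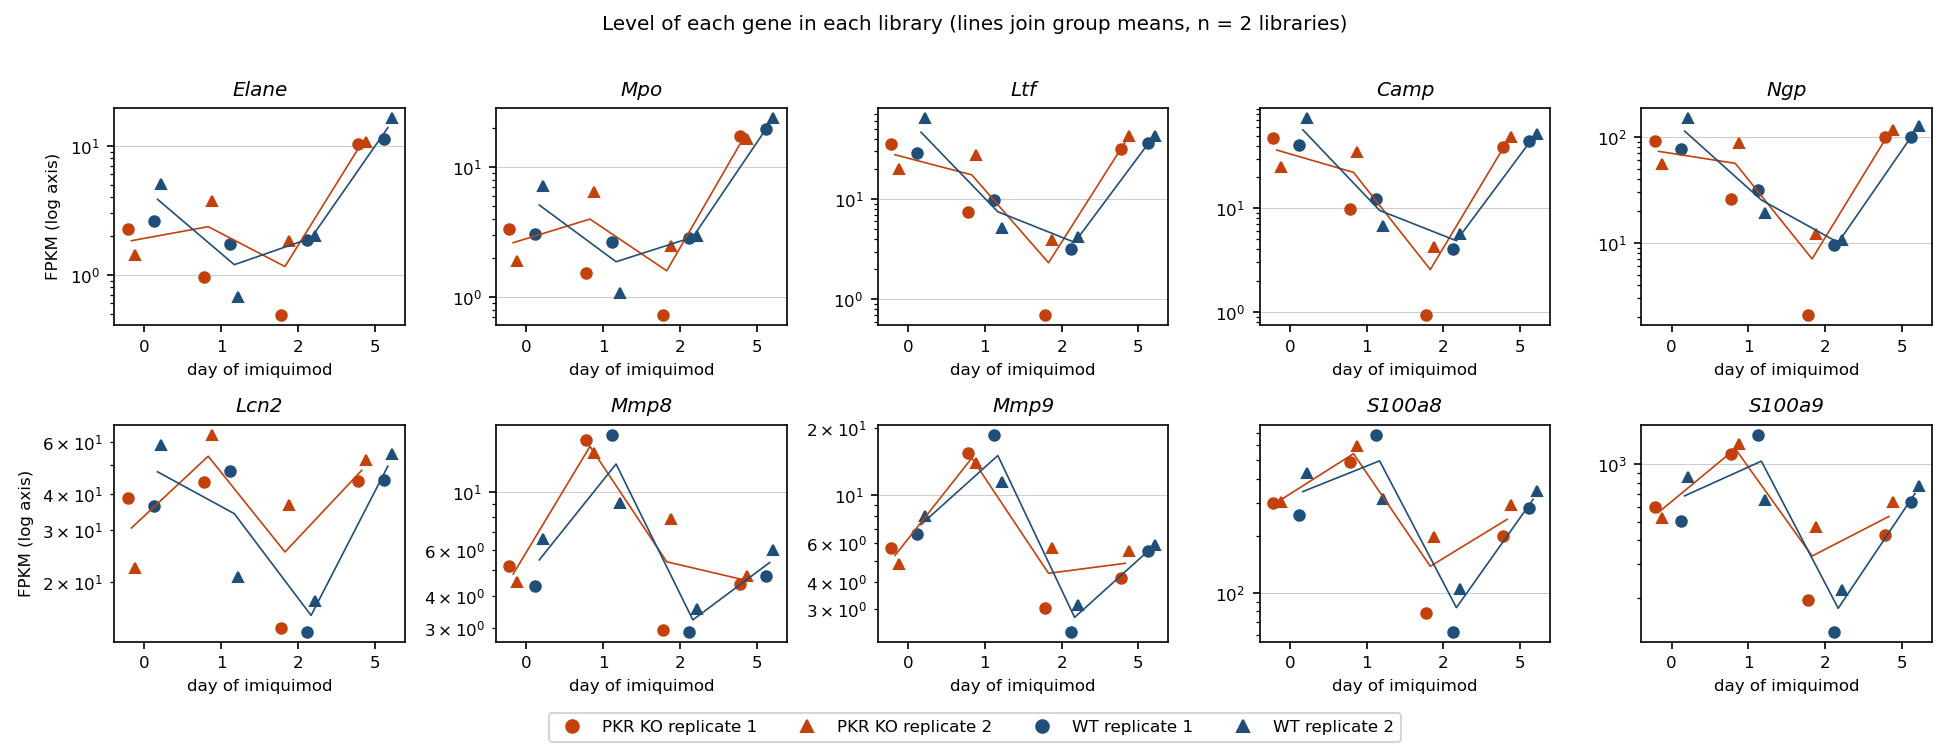
Level of each gene in each library, in FPKM on a log axis whose range differs between panels, against the day of imiquimod; circles are replicate 1, triangles replicate 2, and lines join the means of 2 libraries. Elane and Mpo were highest on day 5, Ltf, Camp and Ngp lowest on day 2, and Mmp8 and Mmp9 highest on day 1.

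The primary granule genes Elane and Mpo stood higher on day 5 than on any earlier day in both genotypes. Elane encodes neutrophil elastase, a serine protease (chromosome 10, 79886247 to 79888215). Elane had 2.26 and 1.41 FPKM in KO_D0, 0.954 and 3.76 FPKM in KO_D1, 0.485 and 1.83 FPKM in KO_D2 and 10.4 and 10.6 FPKM in KO_D5. Elane had 2.59 and 5.09 FPKM in WT_D0, 1.72 and 0.672 FPKM in WT_D1, 1.86 and 1.99 FPKM in WT_D2 and 11.3 and 16.3 FPKM in WT_D5. In each genotype both day 5 libraries lay above all 6 libraries of the earlier days. Mpo encodes myeloperoxidase, which makes hypochlorous acid in the phagosome (chromosome 11, 87793581 to 87804413). Mpo had 3.34 and 1.90 FPKM in KO_D0, 1.54 and 6.42 FPKM in KO_D1, 0.725 and 2.46 FPKM in KO_D2 and 17.2 and 16.3 FPKM in KO_D5. Mpo had 3.05 and 7.16 FPKM in WT_D0, 2.67 and 1.07 FPKM in WT_D1, 2.85 and 2.93 FPKM in WT_D2 and 19.5 and 23.7 FPKM in WT_D5. Day 5 again stood above every earlier library of the same genotype.

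Of the 10 genes, 2 rose on day 5 over day 0 in the knockout, against a background of 22.8% of all genes called higher. Elane rose by 2.50 (SE 0.70), or 5.66-fold (edgeR adjusted p = 0.0175). Mpo rose by 2.66 (SE 0.80), or 6.32-fold (edgeR adjusted p = 0.0254). Both calls ended without KO_D0 replicate 2 (adjusted p = 0.0966 for Elane and 0.132 for Mpo) or without KO_D5 replicate 1 (0.0537 and 0.0742), and that of Mpo also without KO_D0 replicate 1 (0.0632) or KO_D5 replicate 2 (0.0599). In WT none of the 10 passed on day 5 over day 0 with edgeR, against 39.5% of all genes called in either direction, and 2 had an unadjusted p under 0.05. These were Elane, at 1.78 (SE 0.65, 95% interval 0.30 to 3.26, adjusted p = 0.0571), and Mpo, at 2.02 (SE 0.76, interval 0.27 to 3.77, adjusted p = 0.0671). DESeq2 called both (adjusted p = 0.0451 and 0.0217), and over all alternatives the adjusted p ran from 0.0126 to 0.226 for Elane and from 0.011 to 0.253 for Mpo. The day 5 changes of the genotypes did not differ past the threshold, with 0.72 (95% interval -1.42 to 2.85, adjusted p = 0.88) for Elane and 0.64 (-1.80 to 3.08, adjusted p = 0.917) for Mpo, knockout minus WT.

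Set against day 2 instead, Elane rose on day 5 by 3.16 (SE 0.75, 8.93-fold, edgeR adjusted p = 0.0101) in the knockout and by 2.78 (SE 0.70, 6.85-fold, adjusted p = 0.0163) in WT. Mpo rose by 3.38 (SE 0.84, 10.4-fold, adjusted p = 0.0142) in the knockout and by 2.84 (SE 0.80, 7.17-fold, adjusted p = 0.0285) in WT. Leaving out the library labelled KO_D2 replicate 1 ended the knockout calls, at adjusted p = 0.0633 for Elane and 0.0823 for Mpo. In WT the Elane call ended without either WT_D2 library (0.0994 and 0.0981) or WT_D5 replicate 2 (0.0689), and the Mpo call without any single library of WT_D2 or WT_D5 (0.0757 to 0.139). On day 1 Elane stood at 0.21 (edgeR adjusted p = 0.849) and Mpo at 0.44 (adjusted p = 0.69) in the knockout. In WT Elane fell on day 1 by 2.05 on the log2 scale (SE 0.72, edgeR adjusted p = 0.0464), with both day 1 libraries below both of day 0. That call lay close to the threshold. It ended when WT_D0 replicate 2 or any library of WT_D1, WT_D2, WT_D5, KO_D0 or KO_D5 was left out, without the filter on low counts (0.1) and with limma-trend (0.0692), and the adjusted p ran from 0.0257 to 0.285 over the alternatives. Mpo in WT, at -1.80 (adjusted p = 0.0989), did not pass on day 1 with edgeR.

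Other genes of the primary granule were set beside them from a list of 8. In the knockout 4 of the 8 rose on day 5 over day 0 and 2 fell, and in WT 4 rose and 1 fell, against backgrounds of 22.8% and 21.5% of all genes higher and 22.1% and 18.1% lower. The list medians were 1.51 in the knockout and 1.37 in WT, while the medians of all genes were -0.03 and -0.01. Prtn3, proteinase 3, rose by 2.64 in the knockout (edgeR adjusted p = 0.00577) and by 2.07 in WT (adjusted p = 0.0163). Ctsg, cathepsin G, rose by 2.40 in the knockout (adjusted p = 0.0123) and by 2.54 in WT (adjusted p = 0.00801). Prss57, a serine protease of azurophil granules, rose by 2.06 in the knockout (adjusted p = 0.00679) and by 1.65 in WT (adjusted p = 0.0144). Markers of other cells moved on the same day. All 10 erythroid markers rose on day 5 over day 0 in each genotype, with sums of 19824 and 28147 FPKM in KO_D5 against 1442 to 2245 FPKM in KO_D0, and of 10028 to 14335 FPKM in WT_D5 against 755 to 1632 FPKM in WT_D0. Of 9 stem and progenitor markers tested, 2 rose and 0 fell in each genotype, with list medians of 0.42 in the knockout and 0.53 in WT. The sum of this list is mostly Irf8, at 41.9 and 46.2 FPKM in KO_D5 against 45.3 and 34.4 FPKM in KO_D0, and at 54.1 and 44.0 FPKM in WT_D5 against 50.7 and 37.2 FPKM in WT_D0. Without Irf8 the markers summed to 20.1 to 23.5 FPKM in KO_D5 against 14.1 to 14.7 FPKM in KO_D0, and to 21.7 to 26.9 FPKM in WT_D5 against 14.9 to 16.9 FPKM in WT_D0. All 10 proliferation genes rose in each genotype on that day. Macrophage markers rose for 8 and fell for 1 of 10 in the knockout, and rose for 6 and fell for 1 in WT. Of 10 monocyte markers 4 rose in the knockout and 6 in WT, and 0 fell in either. No marker of these lists was at 0 in both libraries of a group, and the part of these cells in the Elane and Mpo levels was not tested.

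**Figure D2:**
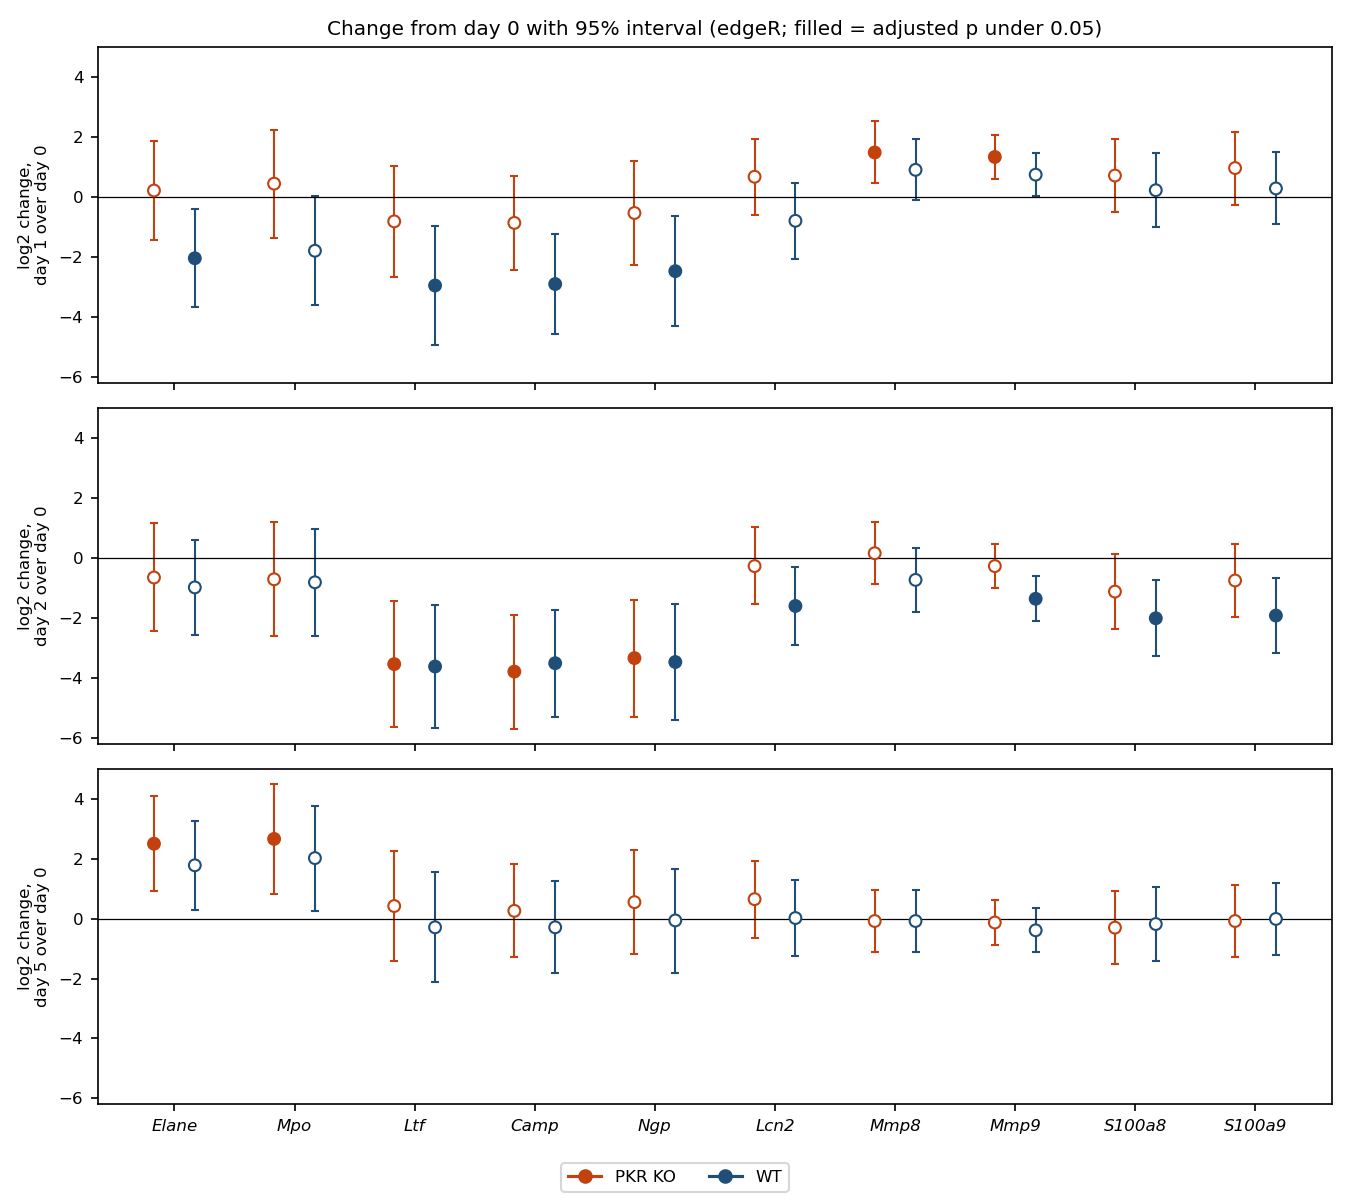
The log2 change of each gene from day 0 on day 1 (top), day 2 (middle) and day 5 (bottom), knockout left of WT, with 95% intervals from edgeR (2 libraries per group); filled points passed the adjusted p threshold of 0.05. On day 2 Ltf, Camp and Ngp lie at -3.35 to -3.80 in both genotypes, and on day 5 only Elane and Mpo in the knockout are filled.

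Ltf, Camp and Ngp, of the specific granule, fell together to their lowest level on day 2 in both genotypes and stood near the day 0 level again on day 5. Ltf encodes lactoferrin, which binds iron (chromosome 9, 111019292 to 111042767). Ltf had 35.2 and 19.9 FPKM in KO_D0, 7.39 and 27.4 FPKM in KO_D1, 0.696 and 3.94 FPKM in KO_D2 and 31.6 and 42.5 FPKM in KO_D5. Ltf had 28.8 and 63.5 FPKM in WT_D0, 9.74 and 5.18 FPKM in WT_D1, 3.20 and 4.20 FPKM in WT_D2 and 36.3 and 42.2 FPKM in WT_D5. In each genotype both day 2 libraries were the lowest of the 8. Camp encodes the cathelicidin precursor, the source of an antimicrobial peptide (chromosome 9, 109847379 to 109849617). Camp had 47.7 and 24.8 FPKM in KO_D0, 9.78 and 34.4 FPKM in KO_D1, 0.927 and 4.18 FPKM in KO_D2 and 38.9 and 48.6 FPKM in KO_D5. Camp had 40.4 and 73.3 FPKM in WT_D0, 12.3 and 6.69 FPKM in WT_D1, 4.01 and 5.68 FPKM in WT_D2 and 43.9 and 52.0 FPKM in WT_D5. The day 5 libraries of each genotype overlapped those of day 0. Ngp, neutrophilic granule protein, is a cystatin-related protein (chromosome 9, 110419747 to 110423012). Ngp had 90.2 and 55.4 FPKM in KO_D0, 25.8 and 86.3 FPKM in KO_D1, 2.07 and 12.0 FPKM in KO_D2 and 99.3 and 115 FPKM in KO_D5. Ngp had 77.1 and 149 FPKM in WT_D0, 31.5 and 19.1 FPKM in WT_D1, 9.58 and 10.5 FPKM in WT_D2 and 98.6 and 126 FPKM in WT_D5. On day 1 all WT libraries of these 3 genes lay below day 0, whereas the KO_D1 pair was split, with replicate 2 within the day 0 range and replicate 1 below it.

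On day 2, 3 of the 10 genes fell in the knockout, against 25.6% of all genes called lower. Ltf fell by 3.55 on the log2 scale (SE 0.91), 11.7-fold lower (edgeR adjusted p = 0.0114). Camp fell by 3.80 (SE 0.83), 14.0-fold lower (edgeR adjusted p = 0.00489), and Ngp by 3.35 (SE 0.85), 10.2-fold lower (adjusted p = 0.0108). All 3 calls ended when KO_D2 and KO_D0 alone were fitted (adjusted p = 0.109 to 0.175), and that of Ltf also without KO_D0 replicate 1 (0.05) or without the library labelled KO_D2 replicate 1 (0.0542), with changes of -3.00 and -2.79. In WT 7 of the 10 fell on day 2, against 23.0% of all genes called lower. Ltf fell by 3.63 (SE 0.90), 12.4-fold lower (edgeR adjusted p = 0.0106), Camp by 3.52 (SE 0.78), 11.5-fold lower (adjusted p = 0.00592), and Ngp by 3.48 (SE 0.85), 11.2-fold lower (adjusted p = 0.00968). Of the 7, 1 was left without WT_D0 replicate 2, 0 without WT_D2 replicate 1 and 4 without WT_D2 replicate 2. The Camp call in WT ended without WT_D2 replicate 1 (0.0534), and the Ltf and Ngp calls without each of these 3 libraries in turn (0.0514 to 0.0792).

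On day 1 in the knockout the values were -0.82 for Ltf, -0.87 for Camp and -0.54 for Ngp, and none passed (edgeR adjusted p = 0.353 to 0.614). In WT 4 of the 10 genes fell on day 1, against 22.7% of all genes called lower. These were Elane, above, with Ltf at -2.96 (SE 0.86, edgeR adjusted p = 0.0228), Camp at -2.91 (SE 0.73, adjusted p = 0.012) and Ngp at -2.48 (SE 0.80, adjusted p = 0.0345). The Ltf and Ngp calls ended without WT_D0 replicate 2 (adjusted p = 0.127 and 0.176), WT_D1 replicate 1 (0.0671 and 0.0934) or WT_D1 replicate 2 (0.137 and 0.176), and that of Ngp also without any library of WT_D2, WT_D5 or KO_D5 (0.0521 to 0.0549) and without the filter on low counts (0.0653). The Camp call ended without WT_D0 replicate 2 (0.0711) or WT_D1 replicate 2 (0.0903). The day 1 change did not differ past the threshold between genotypes, at 2.14 (95% interval -0.49 to 4.77, adjusted p = 0.472) for Ltf, 2.04 (-0.21 to 4.29, adjusted p = 0.425) for Camp and 1.95 (-0.54 to 4.44, adjusted p = 0.487) for Ngp, knockout minus WT. These intervals include 0 and differences as large as the WT change itself.

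From day 2 to day 5 these genes came back. In the knockout 5 of the 10 genes rose on day 5 over day 2, against 18.4% of all genes called higher, and in WT 7 of the 10, against 16.2%. Ltf was 15.7-fold higher in the knockout (3.97, SE 0.93, edgeR adjusted p = 0.0104) and 10.1-fold higher in WT (3.34, SE 0.89, adjusted p = 0.0224). Camp was 16.8-fold higher in the knockout (4.07, SE 0.83, adjusted p = 0.00534) and 9.38-fold higher in WT (3.23, SE 0.77, adjusted p = 0.0138). Ngp was 15.0-fold higher in the knockout (3.90, SE 0.87, adjusted p = 0.00831) and 10.7-fold higher in WT (3.42, SE 0.85, adjusted p = 0.0161). The WT count fell to 0 without either WT_D2 library, to 3 without WT_D5 replicate 1 and to 1 without WT_D5 replicate 2, and the knockout count to 3 without the library labelled KO_D2 replicate 1 and to 3 when the groups compared were fitted alone (Ltf adjusted p = 0.0907 and Ngp 0.0983). Against day 0, the other 8 genes stood at -0.30 to 0.65 in the knockout and at -0.39 to 0.02 in WT on day 5, and none passed. When KO_D5 and KO_D0 alone were fitted, Lcn2 (0.67, adjusted p = 0.000124), Ngp (0.57, adjusted p = 0.00139) and Ltf (0.44, adjusted p = 0.0183) passed.

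A list of 20 other genes of the later granules was set beside them. In the knockout 9 fell and 1 rose on day 2, and in WT 11 fell and 2 rose, with medians of -0.85 and -1.17 beside -0.06 for all genes in each genotype. Of all genes 24.1% were called higher and 25.6% lower in the knockout on that day, and 22.3% higher and 23.0% lower in WT. Cd177, a surface protein of the specific granule membrane, fell by 2.73 in the knockout (edgeR adjusted p = 0.00676) and by 3.10 in WT (adjusted p = 0.00353). Orm1, orosomucoid, fell by 2.60 in the knockout (adjusted p = 0.00223) and by 2.45 in WT (adjusted p = 0.00205). Fcnb, ficolin B, fell by 1.95 in the knockout (adjusted p = 0.0438) and by 2.05 in WT (adjusted p = 0.0258). From day 2 to day 5, 9 of the 20 rose and 2 fell in the knockout and 11 rose and 0 fell in WT. Of all genes 18.4% were called higher and 16% lower in the knockout, and 16.2% higher and 13.1% lower in WT. Cd177 was up by 3.04 in the knockout and 2.98 in WT. Eosinophil and basophil markers, whose cells also carry granules, moved in the same way. On day 2, 9 of these 10 fell in each genotype, with sums of 7.13 to 7.50 FPKM in KO_D2 against 29.8 to 35.3 FPKM in KO_D0, and of 8.39 to 9.88 FPKM in WT_D2 against 33.2 to 53.4 FPKM in WT_D0. Erythroid markers summed to 30.7 to 265 FPKM in KO_D2 and to 153 to 209 FPKM in WT_D2, below their day 0 sums. Other marker lists also fell in part on day 2. Of 10 monocyte markers 6 fell and 1 rose in the knockout (median -0.99), and 4 fell and 2 rose in WT (median -0.43). Of 10 macrophage markers 4 fell and 1 rose in the knockout (-0.29), and 5 fell and 1 rose in WT (-0.53). Of 9 stem and progenitor markers tested, 4 fell and 1 rose in the knockout (-1.02), and 5 fell and 1 rose in WT (-0.7). The part of all these cells in the granule gene levels was not tested.

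Among 10 transcription factors of granulocyte development, 5 fell and 0 rose on day 2 in the knockout, against 25.6% of all genes lower and 24.1% higher, and 6 fell and 0 rose in WT, against 23.0% lower and 22.3% higher. Cebpe, the C/EBP family member needed for specific granules in mice, fell by 2.72 (SE 0.67, edgeR adjusted p = 0.00391) in the knockout and by 2.88 (SE 0.57, adjusted p = 0.00103) in WT. From day 2 to day 5 Cebpe rose by 3.37 (adjusted p = 0.00112) in the knockout and by 2.79 (adjusted p = 0.0024) in WT. Cebpa, which acts earlier in the lineage, fell on day 2 by 2.56 (adjusted p = 1.01e-06) in the knockout and by 1.67 (adjusted p = 6.25e-05) in WT, and was still lower on day 5, by 0.82 (adjusted p = 0.0157) in the knockout and 0.69 (adjusted p = 0.0405) in WT. On day 5 over day 0, 2 of the 10 factors rose and 1 fell in the knockout (median -0.01). In WT 2 rose and 3 fell (median -0.36). Of all genes 22.8% rose and 22.1% fell in the knockout, and 21.5% rose and 18.1% fell in WT. Klf5, a zinc finger factor, and Myb, a factor of immature precursors, rose on day 5 over day 0. Myb is also on the stem and progenitor list, and is among the markers counted there as risen on day 5. The erythroid and proliferation lists rose on the same day, and which cells gave the rises of Klf5 and Myb was not tested. Klf5 rose by 1.54 (adjusted p = 0.00711) in the knockout and by 1.07 (adjusted p = 0.0493) in WT, and Myb by 0.97 (adjusted p = 0.000111) in the knockout and by 0.82 (adjusted p = 0.000648) in WT.

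Mmp8 and Mmp9 followed another course, with the highest levels on day 1. Mmp8 encodes neutrophil collagenase (chromosome 9, 7558456 to 7568485). Mmp8 had 5.18 and 4.50 FPKM in KO_D0, 15.8 and 14.0 FPKM in KO_D1, 2.95 and 7.83 FPKM in KO_D2 and 4.44 and 4.76 FPKM in KO_D5. Mmp8 had 4.37 and 6.59 FPKM in WT_D0, 16.5 and 9.02 FPKM in WT_D1, 2.91 and 3.55 FPKM in WT_D2 and 4.75 and 5.96 FPKM in WT_D5. Mmp9 encodes gelatinase B (chromosome 2, 164948219 to 164955850). Mmp9 had 5.73 and 4.82 FPKM in KO_D0, 15.4 and 13.9 FPKM in KO_D1, 3.04 and 5.71 FPKM in KO_D2 and 4.17 and 5.55 FPKM in KO_D5. Mmp9 had 6.58 and 8.01 FPKM in WT_D0, 18.7 and 11.4 FPKM in WT_D1, 2.37 and 3.14 FPKM in WT_D2 and 5.55 and 5.86 FPKM in WT_D5. For both genes every day 1 library lay above all others of its genotype. In the knockout 2 of the 10 genes rose on day 1 over day 0, against 20.7% of all genes called higher. Mmp8 rose by 1.48 (SE 0.46, 2.80-fold, edgeR adjusted p = 0.0283) and Mmp9 by 1.33 (SE 0.33, 2.52-fold, adjusted p = 0.00825). Without single libraries of KO_D0 or KO_D1 the adjusted p of Mmp8 was 0.0662 to 0.131, and without the filter on low counts 0.0594, and that of Mmp9 was 0.07 without KO_D0 replicate 2 and 0.0509 without KO_D1 replicate 1. In WT none of the 10 passed upwards on day 1, against 21.9% of all genes, with Mmp8 at 0.90 (95% interval -0.11 to 1.92, adjusted p = 0.133) and Mmp9 at 0.74 (0.02 to 1.45, adjusted p = 0.0868). DESeq2 called Mmp9 (0.75, adjusted p = 0.0128). Limma-trend on log2(FPKM + 0.1), which leaves out the TMM scaling, called Mmp8 (1.17, adjusted p = 0.033) and Mmp9 (1.00, adjusted p = 0.0149). On day 2 Mmp9 stood at -0.28 in the knockout (95% interval -1.02 to 0.46, adjusted p = 0.515). In WT Mmp9 fell on day 2 by 1.37 (SE 0.34, adjusted p = 0.00727), a call lost on leaving out WT_D0 replicate 2 (0.0733) or WT_D2 replicate 1 (0.0782). The difference of these changes, knockout minus WT, was 1.09 (0.04 to 2.14), with an unadjusted p of 0.0431 and an adjusted p of 1.00 by edgeR.

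Lcn2, lipocalin 2, binds bacterial siderophores and is made by other inflamed cells as well as in specific granules (chromosome 2, 32384633 to 32387797). Lcn2 had 38.8 and 22.3 FPKM in KO_D0, 43.9 and 63.6 FPKM in KO_D1, 13.9 and 36.7 FPKM in KO_D2 and 44.2 and 52.0 FPKM in KO_D5. Lcn2 had 36.4 and 58.7 FPKM in WT_D0, 47.7 and 20.7 FPKM in WT_D1, 13.5 and 17.2 FPKM in WT_D2 and 44.6 and 54.8 FPKM in WT_D5. In WT Lcn2 fell on day 2 by 1.61 (SE 0.57, 3.05-fold lower, edgeR adjusted p = 0.049). The call ended when any library outside WT_D1 and KO_D2 was left out (adjusted p up to 0.254), without the filter on low counts (0.091), with the size factors of DESeq2 (0.0526) and with a transcript of any type (0.0557). In the knockout Lcn2 did not pass on any day (adjusted p = 0.377 on day 1, 0.716 on day 2 and 0.386 on day 5), but it passed on day 5 with KO_D5 and KO_D0 fitted alone, as given above.

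S100a8 and S100a9 had the highest FPKM of the 10 genes and, by group mean, their lowest on day 2 in both genotypes. They lie on chromosome 3, S100a8 at 90668978 to 90670035 and S100a9 at 90692632 to 90695711. S100a8 had 300 and 301 FPKM in KO_D0, 489 and 596 FPKM in KO_D1, 78.6 and 198 FPKM in KO_D2 and 199 and 290 FPKM in KO_D5. S100a8 had 258 and 427 FPKM in WT_D0, 682 and 313 FPKM in WT_D1, 62.5 and 105 FPKM in WT_D2 and 280 and 344 FPKM in WT_D5. In the knockout both day 1 libraries lay above day 0, while in WT the groups overlapped. S100a9 had 595 and 526 FPKM in KO_D0, 1133 and 1267 FPKM in KO_D1, 195 and 469 FPKM in KO_D2 and 429 and 638 FPKM in KO_D5. S100a9 had 508 and 858 FPKM in WT_D0, 1419 and 651 FPKM in WT_D1, 134 and 221 FPKM in WT_D2 and 636 and 768 FPKM in WT_D5. The level of S100a9 was above that of S100a8 in each of the 16 libraries.

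No day 1 change of the alarmins passed. In the knockout S100a8 stood at 0.71 (95% interval -0.52 to 1.94, edgeR adjusted p = 0.333) and S100a9 at 0.96 (-0.26 to 2.17, adjusted p = 0.188) on day 1. When KO_D1 and KO_D0 alone were fitted both passed, at 0.74 (adjusted p = 6.72e-05) and 0.99 (adjusted p = 1.63e-06). In WT the day 1 intervals, -1.0 to 1.45 for S100a8 and -0.92 to 1.49 for S100a9, covered changes in either direction. On day 2 in the knockout S100a8 stood at -1.13 (interval -2.37 to 0.12, adjusted p = 0.12, and 0.0458 with limma-trend) and S100a9 at -0.76 (-1.98 to 0.45, adjusted p = 0.269). The S100a8 value was -0.58 (adjusted p = 0.452) when the library labelled KO_D2 replicate 1 was left out, and -1.95 (adjusted p = 0.0318) when KO_D2 was that library alone, which goes against its label. In WT S100a8 was 4.04-fold lower (SE 0.56, adjusted p = 0.0174) and S100a9 3.80-fold lower (SE 0.55, adjusted p = 0.0191) on day 2, both above 0.05 when WT_D0 replicate 2 (0.115 and 0.131) or WT_D2 replicate 1 (0.125 and 0.136) was left out. From day 2 to day 5 in WT S100a8 rose by 1.84 (SE 0.56, adjusted p = 0.0373) and S100a9 by 1.92 (SE 0.55, adjusted p = 0.0287), calls that ended without any single library of WT_D2 or WT_D5 (0.0667 to 0.206). Both calls ended without the filter on low counts (0.0683 and 0.0541), and that of S100a8 also without any library of KO_D0, KO_D1 or KO_D5 (0.0515 to 0.0591).

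Surface receptors of mature neutrophils, a list of 18 of which 17 were tested, had their highest counts of risen genes on day 1. In the knockout 12 of the 17 rose and 1 fell, with a median of 1.67, and in WT 12 rose and 1 fell, with a median of 1.59, beside -0.04 and -0.07 for all genes. Of all genes 20.7% were called higher and 20.9% lower in the knockout on day 1, and 21.9% higher and 22.7% lower in WT. Fpr1, a receptor for formylated bacterial peptides, rose by 2.36 in the knockout (edgeR adjusted p = 0.00162) and by 1.95 in WT (adjusted p = 0.00412). Cxcr1, a receptor for neutrophil-attracting chemokines, rose by 1.85 in the knockout (adjusted p = 0.0162) and by 2.27 in WT (adjusted p = 0.00433). Clec4e, a lectin receptor, rose by 1.67 in the knockout (adjusted p = 0.00578) and by 2.07 in WT (adjusted p = 0.00158). For none of the 17 did the day 1 change differ past the threshold between genotypes. Mrgpra2a and Mrgpra2b rose in both genotypes, but they are near-identical copies whose counts are uncertain. On day 2, 3 of the 17 rose and 2 fell in the knockout and 0 rose and 4 fell in WT, against 24.1% of all genes higher and 25.6% lower in the knockout and 22.3% higher and 23.0% lower in WT. Ly6g, the mouse neutrophil antigen, did not pass on day 1, at 0.90 in the knockout (edgeR adjusted p = 0.18) and 0.40 in WT (adjusted p = 0.52). On day 2 it had 0.299 and 1.15 FPKM in KO_D2 against 2.17 and 1.35 FPKM in KO_D0 (-1.27, SE 0.59, edgeR adjusted p = 0.0958). It fell in WT by 3.05 (SE 0.64, adjusted p = 0.00216), with 0.179 and 0.409 FPKM in WT_D2 against 1.60 and 3.52 FPKM in WT_D0. The day 2 changes of Ly6g did not differ past the threshold, at 1.78 (SE 0.90, adjusted p = 1.00), knockout minus WT. Monocyte markers, whose cells also make calprotectin, summed to 194 to 245 FPKM in KO_D1 against 101 to 106 FPKM in KO_D0, and to 305 to 399 FPKM in WT_D1 against 101 to 114 FPKM in WT_D0. These sums are carried by Ly6c2, at 139 and 164 FPKM in KO_D1 against 38.0 and 36.9 FPKM in KO_D0, and at 325 and 260 FPKM in WT_D1 against 48.2 and 35.0 FPKM in WT_D0. The other 9 markers summed to 55.6 to 80.8 FPKM in KO_D1 against 63.8 to 68.1 FPKM in KO_D0, and to 44.3 to 74.4 FPKM in WT_D1 against 65.6 to 65.9 FPKM in WT_D0. Of these 10 markers 2 rose and 3 fell in the knockout (median -0.06) and 1 rose and 3 fell in WT (median -0.45) on day 1, and their part in the day 1 levels was not tested.

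Levels of primary against later granule genes were set out by library, as a description with no test. The primary level is the mean log2(FPKM + 0.1) of Elane and Mpo and the later level that of the 6 later granule genes. Primary minus later was -3.06 and -3.16 in KO_D0, -3.66 and -2.66 in KO_D1, -1.84 and -1.92 in KO_D2, and -0.69 and -0.99 in KO_D5. It was -2.88 and -2.56 in WT_D0, -3.13 and -3.49 in WT_D1, -1.02 and -1.29 in WT_D2, and -0.69 and -0.53 in WT_D5. In each genotype all 4 libraries of days 2 and 5 lay above all 4 of days 0 and 1. On day 2 the values of Ltf, Camp and Ngp lay further below day 0 than those of Elane and Mpo, and on day 5 Elane and Mpo lay above day 0. On day 2 Elane stood at -0.66 and Mpo at -0.72 in the knockout, and at -0.99 and -0.82 in WT. Lcn2, Mmp8 and Mmp9 stood at -0.28, 0.15 and -0.28 in the knockout, less far below day 0 than Elane and Mpo. In WT these values were -1.61, -0.74 and -1.37. Day 2 list medians were -0.57 in the knockout and -0.74 in WT for other primary granule genes, and -0.85 and -1.17 for other later ones. Mpo as a percentage of Ltf, both in FPKM, was 9.51% and 9.55% in KO_D0, 20.8% and 23.4% in KO_D1, 104% and 62.4% in KO_D2, and 54.4% and 38.3% in KO_D5. It was 10.6% and 11.3% in WT_D0, 27.4% and 20.6% in WT_D1, 89.2% and 69.8% in WT_D2, and 53.8% and 56.3% in WT_D5. The ratio of S100a8 to Ltf was highest on other days than that of Mpo to Ltf in WT. It was 8.53 and 15.2 in KO_D0, 66.1 and 21.7 in KO_D1, 113 and 50.3 in KO_D2, and 6.31 and 6.83 in KO_D5, and 8.97 and 6.72 in WT_D0, 70.0 and 60.5 in WT_D1, 19.5 and 24.9 in WT_D2, and 7.72 and 8.16 in WT_D5.

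**Figure D3:**
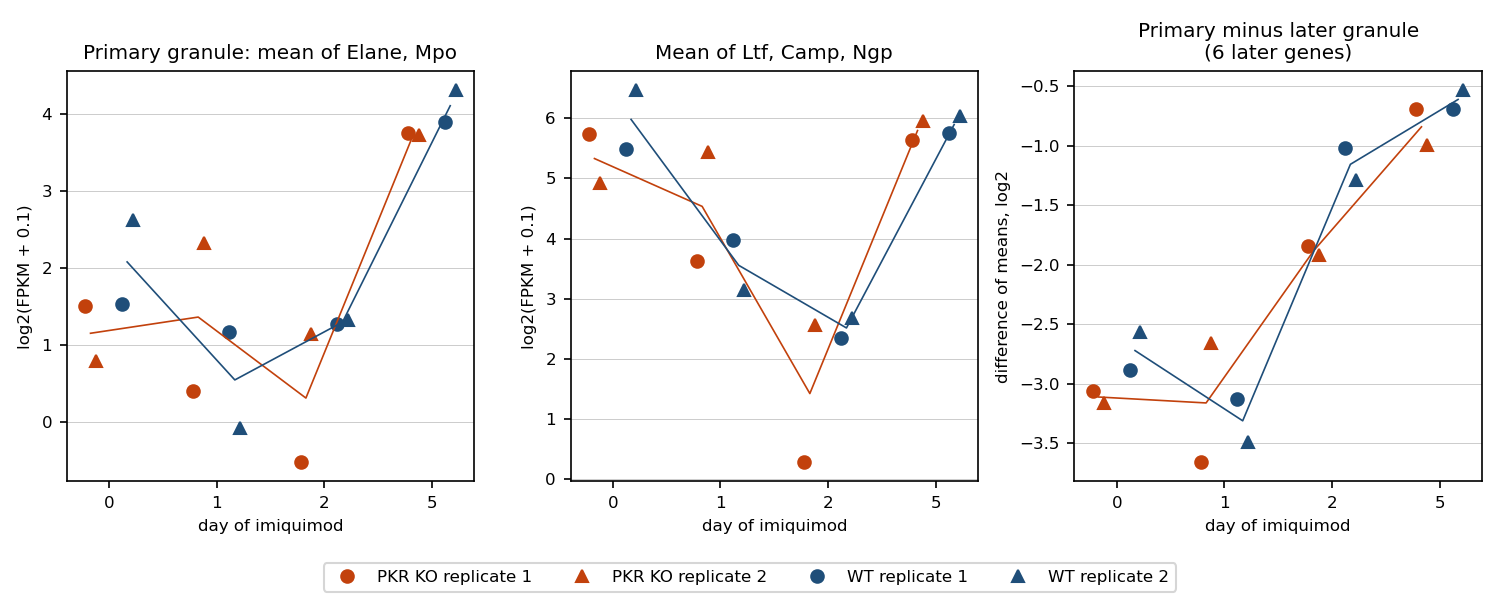
Mean log2(FPKM + 0.1) of Elane and Mpo (left), of Ltf, Camp and Ngp (middle), and the primary minus later difference over 6 later genes (right), by day, with 1 point per library and lines through the means of 2 libraries. The difference lies at -3.66 to -2.56 on days 0 and 1 and at -1.92 to -0.53 on days 2 and 5.

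Across the 16 libraries the 10 genes fell into blocks of like pattern, given as Pearson r of log2(FPKM + 0.1), with no p since the libraries share groups and replicate differences. Elane and Mpo had r = 1.00 to 2 decimals, as did Ltf with Camp and with Ngp. S100a8 and S100a9 had r = 0.99, and Mmp8 and Mmp9 r = 0.95. Between blocks, Ltf had r = 0.78 with Elane, 0.79 with Lcn2, 0.62 with S100a8 and 0.14 with Mmp8. S100a8 had r = 0.90 with Mmp9 and 0.23 with Elane. Elane had r = -0.12 with Mmp8.

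The genes most like each class were sought among 9686 genes over the same 16 libraries. Nearest to the primary level were Prtn3 (r = 0.978) and Ctsg (0.964), both primary granule proteases. Next were Ms4a3 (0.945), a membrane protein gene of granulocyte precursors, Fcnb (0.943) and Tspo2 (0.94), an erythroid gene. Fcnb was named above among the other later granule genes, though its pattern lay near the primary level. Fcnb had 3.51 and 4.32 FPKM in KO_D5 against 2.00 and 0.98 FPKM in KO_D0. In WT these were 4.27 and 6.12 FPKM in WT_D5 against 1.35 and 3.12 FPKM in WT_D0. Tspo2 had 34.8 and 26.3 FPKM in KO_D5 against 1.61 and 1.58 FPKM in KO_D0. Nearest to the later level were Cd177 (0.975), Itgb2l (0.956), an integrin subunit gene of neutrophils, Cebpe (0.929), Fyb (0.925) and Anxa1 (0.92). Cebpe had 0.0679 and 0.251 FPKM in KO_D2 against 1.63 and 0.511 FPKM in KO_D0, and 0.204 and 0.325 FPKM in WT_D2 against 1.69 and 2.39 FPKM in WT_D0. Nearest to the alarmins were Ly6g (0.976), Ifitm6 (0.955), Padi4 (0.944), which citrullinates histones in neutrophils, Fosl2 (0.942) and Fcgr3 (0.928).

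**Figure D4:**
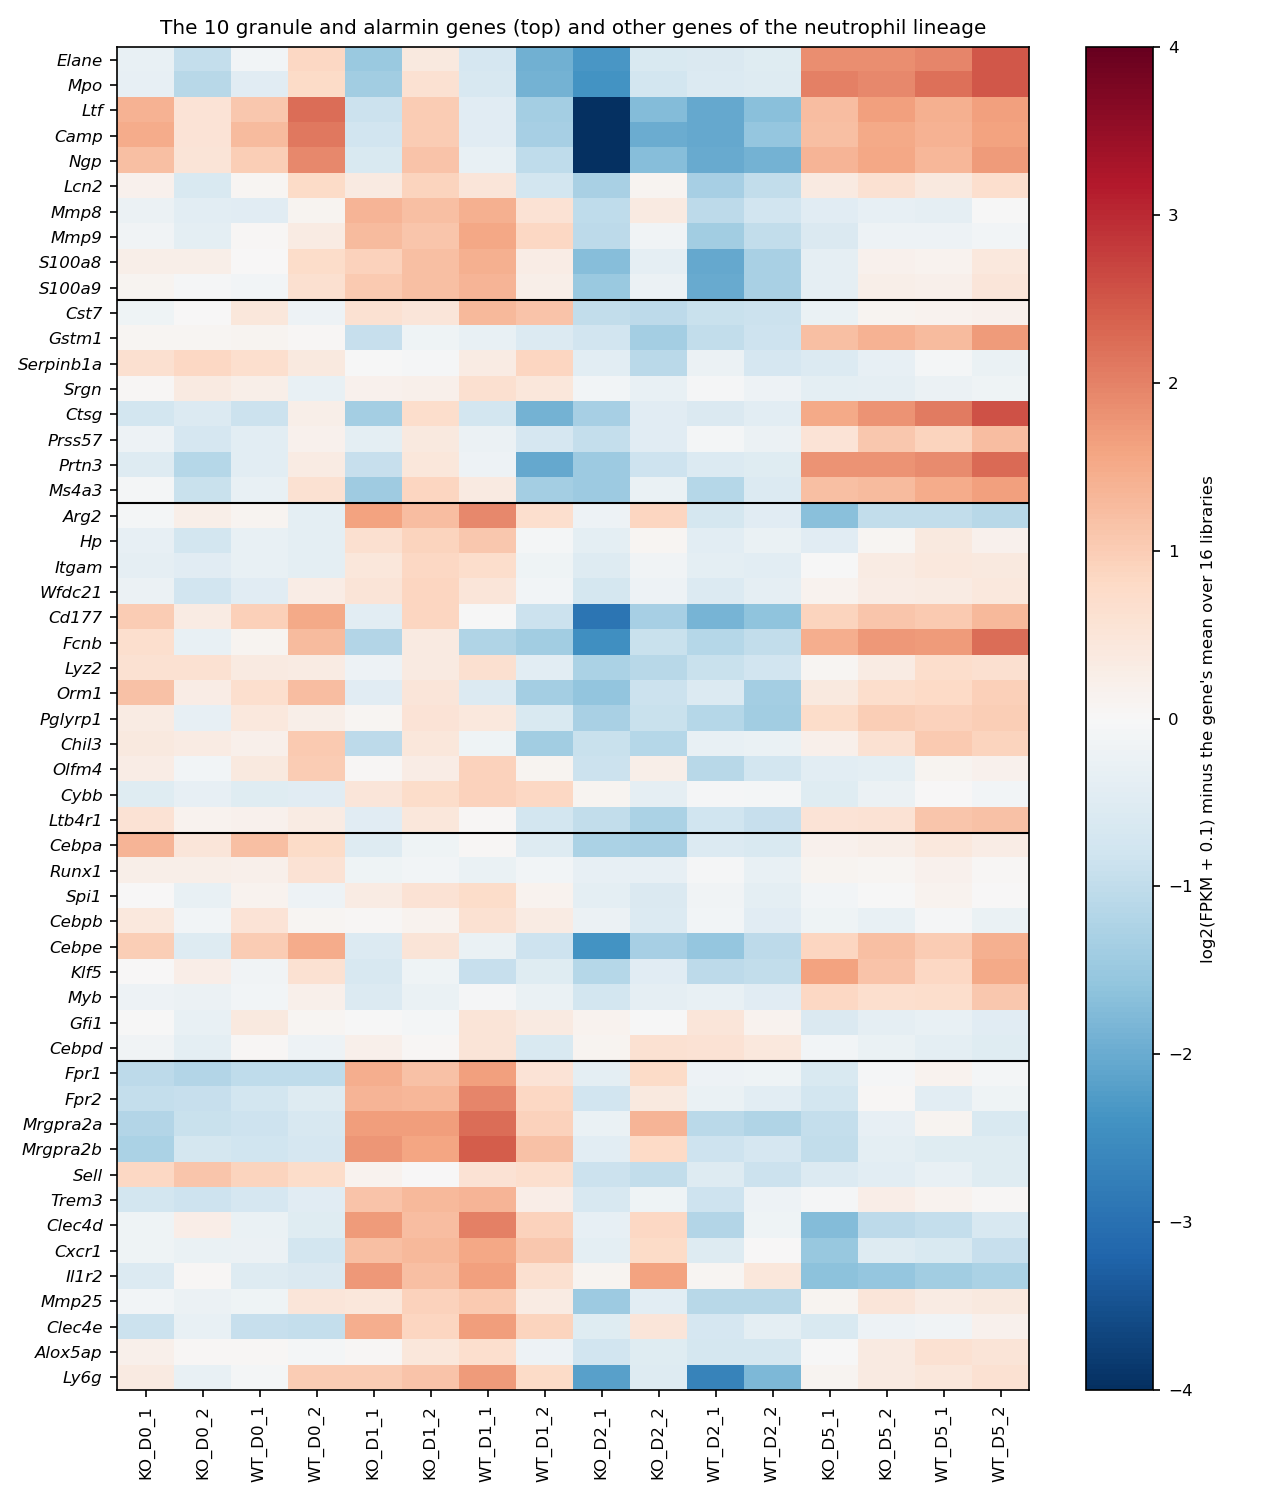
log2(FPKM + 0.1) minus the gene's mean over 16 libraries (colour, red above and blue below the mean), with libraries in columns by day, knockout left of WT; black lines part the 10 granule and alarmin genes, other primary granule genes, other later granule genes, transcription factors and surface receptors. The day 5 columns are red for Elane, Mpo, Prtn3 and Ctsg, the day 2 columns blue for Ltf, Camp, Ngp, Cd177 and Cebpe, and the day 1 columns red for most surface receptors.

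Libraries of the same group often differed, and the 10 genes then moved together. In KO_D2 all 10 genes were higher in replicate 2 than in the library labelled KO_D2 replicate 1, with a median log2 ratio of 1.58, and Ltf was 5.66 times as high. In KO_D1 8 of the 10 were higher in replicate 2 (median 1.14), and in KO_D0 1 of 10 (median -0.69). In WT_D0 all 10 were higher in replicate 2 (median 0.81), and in WT_D1 all 10 were lower in it (median -1.02). In KO_D5, WT_D2 and WT_D5 the medians were 0.28, 0.37 and 0.29. The median over all genes was -0.13 to 0.09 in the 8 groups. The 8 other primary granule genes had medians of 0.31 in KO_D2, 1.09 in KO_D1, 0.09 in KO_D0, 0.34 in WT_D0 and -0.71 in WT_D1. Those of the 20 other later granule genes were 0.44, 0.37, -0.31, 0.08 and -0.95 in the same groups. Markers of other cells moved in some of the same pairs. The 10 erythroid markers had median log2 ratios of 3.12 in KO_D2, 1.74 in KO_D1, 0.66 in KO_D0, 1.30 in WT_D0 and -1.67 in WT_D1, and the eosinophil and basophil markers 0.22, 1.36, -0.40, 0.85 and -0.62. What moved these lists together within pairs was not tested.

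**Figure D5:**
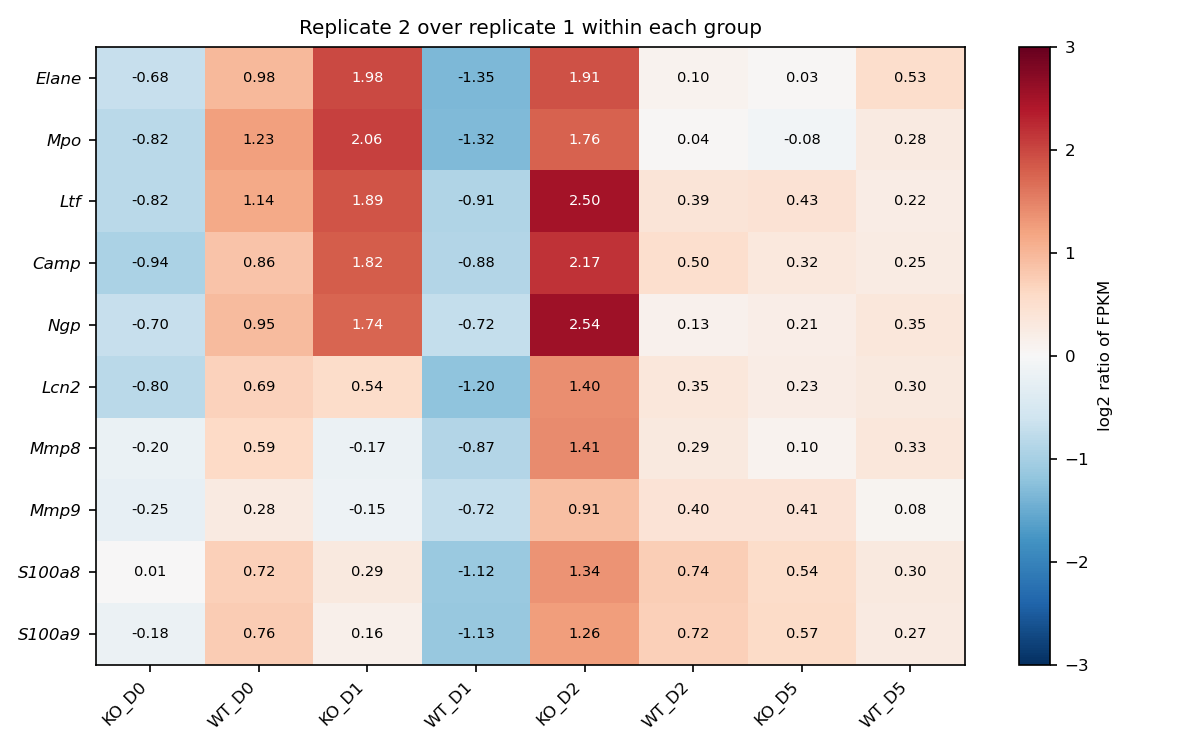
The log2 ratio of FPKM in replicate 2 over replicate 1, for each gene (rows) in each group (columns, knockout left of WT within a day); red is higher in replicate 2. The KO_D2 column is the reddest, with Ltf at 2.50 and Ngp at 2.54, and the WT_D1 column is blue for all 10 genes.

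The comparison of the genotypes asks whether loss of PKR changed these genes. On no day did any of the 10 genes pass between knockout and WT with edgeR, DESeq2 or limma-trend, and none had an unadjusted p under 0.05 with edgeR on all 16 libraries. All genes were called rarely here, at 0.0213% on day 0, 0.187% on day 1, 0.0% on day 2 and 0.00534% on day 5. Eif2ak2, the gene knocked out, did not pass either, at -0.89 (edgeR adjusted p = 0.802) on day 0, -1.30 (0.117) on day 1 and -0.78 (0.656) on day 5. Nor did it pass on day 2 or averaged over the days (edgeR adjusted p = 0.993 and 0.325). A test that did not call the knocked-out gene cannot show that the 10 genes were unchanged. Averaged over the 4 days, the differences, knockout minus WT, ran from -0.21 for Elane (95% interval -1.03 to 0.61) to 0.25 for Lcn2 (-0.39 to 0.89), with 0.0267% of all genes called and none of the 10. For Ltf the averaged interval was -0.94 to 0.95, for Mpo -1.09 to 0.70, for S100a8 -0.46 to 0.77, and for Mmp9 -0.31 to 0.42. The day 2 and averaged values include the library labelled KO_D2 replicate 1, which goes against its label. When it was left out, the averaged differences were -0.05 (SE 0.35) for Elane, -0.04 (SE 0.38) for Mpo and 0.19 (SE 0.36) for Ltf. They were 0.38 (SE 0.24) for Lcn2, 0.29 (SE 0.23) for S100a8, 0.36 (SE 0.15) for Mmp8 and 0.16 (SE 0.13) for Mmp9. The day 2 differences were then 1.27 (SE 0.53) for S100a8, 1.43 (SE 0.53) for S100a9, 1.28 (SE 0.56) for Lcn2, 1.30 (SE 0.35) for Mmp8 and 1.07 (SE 0.29) for Mmp9, and -0.21 to 0.29 for the other 5 genes, with adjusted p = 0.37 to 0.996 over the 10. Of these, S100a8, S100a9, Mmp8 and Mmp9 had an unadjusted p under 0.05. The day 1 changes differed by 0.48 to 2.25 between the genotypes, all 10 in the direction of higher values in the knockout, and none passed (adjusted p = 0.395 to 0.826), against 0.171% of all genes. The 10 values were not independent, as the genes moved together between replicates. The largest, for Elane, was 2.25 (95% interval -0.08 to 4.59). For the changes of days 2 and 5 none of the 10 passed and 0.0% of all genes were called, and with the library labelled KO_D2 replicate 1 left out none passed on day 2 (adjusted p = 0.7 to 0.956). On day 1 Elane had 0.954 and 3.76 FPKM in the knockout and 1.72 and 0.672 in WT, so that the groups overlapped, and without KO_D1 replicate 2 the day 1 difference of Elane was -0.05 and that of Mpo -0.02. Of the other lists, 1 gene differed between genotypes, the monocyte marker Ly6c2, lower in the knockout on day 1 by a log2 value of -0.75 (edgeR adjusted p = 0.0397).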

How the data were processed

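Spleen RNA of 16 libraries was analysed from the authors' deposited tables of 142604 mouse transcripts. Per the file headers these hold whole fragment counts per transcript. The FPM signal, as computed by the authors, is the count scaled to the total fragments of the library, and the deposited FPKM is FPM per kilobase of transcript length. The submitters' processing notes name mm10, bcl2fastq 2.17.1.14, Trimmomatic, HISAT2 and TopHat. Neither the counting program nor the annotation is stated in these sources. A fragment counts in every isoform it overlaps, so summed counts were 1.48 to 2.12 times the library totals.

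From these, 1 transcript was kept per symbol, the protein-coding one of highest mean count, with types from GENCODE M21, where 98.7% of the transcripts were found. Counts were tested with edgeR 4.0.16 in R 4.3.3 (filterByExpr, TMM, robust quasi-likelihood F test, 8 residual degrees of freedom, two-sided) in 16 comparisons, with Benjamini-Hochberg adjustment over the 18744 genes of each. Every adjusted p comes from edgeR unless DESeq2 1.42.0 or limma 3.58.1 (limma-trend on log2(FPKM + 0.1)) is named. The SE is the log2 change over the square root of F. The procedure was tested on simulated data. Alternatives were other filters, scalings, tools, pseudocounts and transcript choices, the groups compared alone, a replicate block and each library left out.

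All 10 genes are named, as are up to 4 genes per list with the largest called changes, and the 5 genes nearest to each class. The members and lists were chosen with earlier results of these data known. Nothing in the labels pairs libraries across groups.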

Additional observations from a re-analysis of the deposited data

How the results depend on the processing

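The number of the 10 genes called moved by over 1.5 times in these cases. Without the filter on low counts it was 2 for WT day 1 against day 0 (4 in the report), 4 for WT day 5 against day 2 (7) and 1 for knockout day 1 against day 0 (2). For WT day 5 against day 0 (0) it was 1 with an FPKM filter of 1, 2 with DESeq2, 1 with limma-trend on log2(FPKM + 0.1), 2 on log2(FPKM + 1), 1 with the sum of all isoforms and 1 with the groups compared alone. With the groups compared alone it was 4 for knockout day 1 against day 0 (2), 0 for day 2 against day 0 (3), 5 for day 5 against day 0 (2) and 3 for day 5 against day 2 (5). Leaving out each library in turn gave 0 to 6 in WT on day 1, 0 to 7 on day 2, 0 to 2 on day 5 and 0 to 9 on day 5 against day 2. In the knockout it gave 0 to 2, 2 to 4, 0 to 2 and 3 to 5. No genotype difference or interaction of the 10 was called under any of these alternatives. Where a group was left with 1 library, that library was assumed to vary like the other groups.

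Without Lcn2 and Mmp9 in the later level, the primary minus later shift on day 2 was 2.09 in the knockout (1.23 in the report) and 2.00 in WT (1.57). With log2(FPKM + 1) the day 5 shift in the knockout was 1.86 (2.27). With single libraries left out the shifts were 1.18 to 1.28 and 2.12 to 2.42 in the knockout and 1.41 to 1.73 and 1.95 to 2.28 in WT, on days 2 and 5.

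Over 100 gene results, 2417 alternative values kept direction and side of the threshold, 114 lost the call, 51 gained it and 17 changed sign, each of these 17 on leaving out 1 library. In WT on day 1, S100a8 stood at -0.11 and S100a9 at -0.06 without WT_D0 replicate 1, and at -0.42 and -0.36 without WT_D1 replicate 1, with highest values of 0.72 and 0.80. Without WT_D0 replicate 2, Mpo in WT on day 2 was 0.05 (lowest -1.28), the day 0 genotype difference of Ltf 0.02 (lowest -1.22) and of Ngp 0.00 (lowest -1.05), and the day 5 interaction of Ltf -0.03 (highest 1.22) and of Mpo -0.17 (highest 1.16). Without KO_D1 replicate 1, Ngp in the knockout on day 1 was 0.09 (lowest -1.59). Without KO_D1 replicate 2, the day 1 genotype difference of Elane was -0.05 (highest 1.98) and of Mpo -0.02 (highest 2.06). Without KO_D2 replicate 2, which leaves the library labelled KO_D2 replicate 1, whose Eif2ak2 goes against its label, as the whole of that group, the day 2 genotype difference of Lcn2 was -0.21 (highest 1.28), of Mmp8 -0.20 (highest 1.30) and of S100a8 -0.16 (highest 1.27), and the day 2 interaction of Mmp8 -0.04 (highest 1.45). Without the library labelled KO_D2 replicate 1, the day 2 genotype difference of Ltf was 0.11 (lowest -2.48). The cause of these changes was not tested beyond the library left out.

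Replicate numbers did not pair the samples. Deviations of same-numbered libraries correlated at -0.162 to 0.207 over 28 pairs of groups (median 0.00626). A fit with the replicate block ended the calls of Elane in WT on day 1 (-1.94, edgeR adjusted p = 0.059) and Lcn2 in WT on day 2 (-1.60, adjusted p = 0.063), and no other call of the 10 genes ended. On log2(FPKM + 0.1), without TMM scaling, the median of all genes on day 1 was 0.146 in the knockout and 0.292 in WT, and 66.5% and 80.5% of called genes were higher, against 49.8% and 49.1% with edgeR. Averaged over genes, replicates differed beyond counting error. Some of the 10 genes had few fragments, such as Elane with 17 in the library labelled KO_D2 replicate 1. Whether depth or the spread between pools limited these comparisons was not tested.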

Other observations

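Factors that call up or attract neutrophils were set out from a list of 14, of which 6 passed the filter on low counts. On day 1, 4 of the 6 rose and 1 fell in the knockout, and 4 rose and 0 fell in WT. Of all genes 20.7% were called higher and 20.9% lower in the knockout on that day, and 21.9% higher and 22.7% lower in WT. Il6, an inflammatory cytokine, had 3.54 and 1.85 FPKM in KO_D1 against 0.282 and 0.302 FPKM in KO_D0 (3.07, SE 0.33, edgeR adjusted p = 7.68e-07), and 2.37 and 2.62 FPKM in WT_D1 against 0.135 and 0.216 FPKM in WT_D0 (3.48, SE 0.34, adjusted p = 3.05e-07). Cxcl2, a neutrophil attractant, rose by 3.37 in the knockout (adjusted p = 0.00245) and by 3.45 in WT (adjusted p = 0.00155), and Il1b by 1.61 (adjusted p = 0.0411) and 2.17 (adjusted p = 0.0118). Cxcl12, a chemokine that holds neutrophils in mouse marrow, rose on day 2 by 3.00 in the knockout (adjusted p = 3.79e-06) and by 2.30 in WT (adjusted p = 0.000239), at levels of at most 0.404 FPKM.

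Of 11 stefin A and S100 genes, 8 were tested, and on day 1 2 rose and 3 fell in the knockout and 2 rose and 2 fell in WT, beside those same shares of all genes. Stfa2l1, of the stefin A family of protease inhibitors, rose on day 1 by 1.88 in the knockout (edgeR adjusted p = 0.00364) and by 2.40 in WT (adjusted p = 0.00064), and its counts are uncertain because the family has near-identical copies. S100a4, a calcium-binding relative of S100a8, fell on day 2, with 24.3 and 17.5 FPKM in KO_D2 against 87.8 and 84.4 FPKM in KO_D0 (-2.08, adjusted p = 4.73e-05), and 31.6 and 26.3 FPKM in WT_D2 against 84.7 and 73.2 FPKM in WT_D0 (-1.42, adjusted p = 0.000855). Of 10 receptors for calprotectin and granule proteins, 8 were tested, and 3 rose and 1 fell in the knockout and 1 rose and 1 fell in WT on day 5 over day 0. Of all genes 22.8% rose and 22.1% fell in the knockout on day 5, and 21.5% rose and 18.1% fell in WT. Bsg, basigin, a receptor for S100a9, rose by 2.28 in the knockout (adjusted p = 4.02e-09) and by 1.71 in WT (adjusted p = 1.97e-07). Bsg is also made by red cell precursors, whose markers rose on the same day, and their part in its level was not tested. Emb, embigin, another receptor for calprotectin, fell on day 2 by 2.03 in the knockout (adjusted p = 2.16e-09) and by 1.54 in WT (adjusted p = 6.06e-08).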
